A study of Mus musculus with 36 samples.

Results

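The Frizzled family of Wnt receptors comprised 10 genes, Fzd1 to Fzd10, of the 20325 mouse genes measured. The family was taken by gene symbol, and it was selected on the fall of Fzd5 under a DOT1L inhibitor at day 2 of the timecourse, so that difference is described below and not tested. Frizzled proteins are multi-pass membrane receptors whose extracellular cysteine-rich domain binds Wnt ligands. With the co-receptors Lrp5 and Lrp6 they pass the signal through Dishevelled to stabilise β-catenin, and with other partners they act in planar cell polarity. Wnt signalling maintains pluripotent stem cells and takes part in the conversion of fibroblasts to induced pluripotent stem cells.

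The study treated reprogramming mouse embryonic fibroblasts (MEFs) with SGC0946, a small-molecule inhibitor of the histone methyltransferase DOT1L, and sequenced polyadenylated RNA in 36 libraries, which formed 18 groups of 2. All MEFs came from E13.5 embryos. At Col1a1 they were homozygous for a cassette of the factors Oct4, Klf4, Sox2 and c-Myc, joined by 2A and IRES elements, and at Rosa26 they were heterozygous for the reverse tetracycline transactivator, so doxycycline switched the factors on. The timecourse held untreated MEFs, cells after 2 days of doxycycline with DMSO (vehicle) or SGC0946, and cells after 4 days of doxycycline with DMSO throughout or with SGC0946 on days 0 to 2 (early), days 2 to 4 (mid) or days 0 to 4 (full). In the sort experiment, cells were separated by surface CDH1 (E-cadherin, an epithelial adhesion protein) after 3.5 days of doxycycline, and the CDH1- and CDH1+ fractions were kept in doxycycline with DMSO or SGC0946 until day 5.5. In the lentivirus experiment, MEFs carried an empty virus or a virus expressing Cdh1. They were harvested as MEFs or after 2 days of doxycycline with DMSO or SGC0946. V6.5 mouse embryonic stem cells (ESCs) had been depleted of feeders for 24 h, and irradiated feeder MEFs lay under the reprogramming cells, so some MEF transcripts can come from feeders.

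Libraries held 18534377 to 50866706 expected counts. Levels are given as CPM, expected counts scaled to a common library size with TMM factors, or as TPM, which also accounts for gene length and allows different genes to be compared. Changes are log2 ± SE from edgeR, each with the p-value adjusted by Benjamini-Hochberg over all genes of its experiment, and a gene was called at an adjusted p under 0.05. All 10 members passed the low-count filter in each of the 3 experiments. The labels do not state that the 2 libraries of a group were separate cultures, so p-values measure a spread that may be technical. With 2 libraries per group, the values of groups can lie apart without a real difference. The share of all genes with such groups was not computed. In these bulk samples, fewer cells of a type and less RNA per cell cannot be told apart. One MEF library with the Cdh1 virus (replicate 2) has a source field that names reprogramming cells of day 2, while its title and treatment name MEFs. It was grouped by title; Pou5f1, one of the induced factors, was at 0.774 to 1.23 CPM in that group and Cdh1 at 171 to 179 CPM. Fibroblast markers were high in the MEFs, and pluripotency markers were high in the ESCs only (summed 2978 to 3187 CPM, against at most 16.2 CPM in the other groups).

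Promoter sequences are shown for Fzd5, the member the family was selected on, for Fzd7, the member with the highest TPM in most groups, and for Fzd1, which was called in the direction opposite to Fzd5 in the full and mid windows and in the sort. RefSeq promoter windows on GRCm38.p6, 250 bases before to 50 bases after the start site, were kept for 6 of the 10 members. No window was kept for Fzd2, Fzd3, Fzd6 and Fzd8. Windows on a chromosome that the search skipped were dropped, so a missing window need not mean a missing RefSeq entry. Capitals mark the GC box (GGGCGG or CCGCCC) and the CCAAT box (CCAAT or ATTGG), searched on both strands with overlapping matches counted separately. The Fzd5 window spans chr1:64737701-64738000 (minus strand), the Fzd7 window chr1:59481897-59482196 (plus strand) and the Fzd1 window chr5:4758167-4758466 (minus strand).
Fzd5: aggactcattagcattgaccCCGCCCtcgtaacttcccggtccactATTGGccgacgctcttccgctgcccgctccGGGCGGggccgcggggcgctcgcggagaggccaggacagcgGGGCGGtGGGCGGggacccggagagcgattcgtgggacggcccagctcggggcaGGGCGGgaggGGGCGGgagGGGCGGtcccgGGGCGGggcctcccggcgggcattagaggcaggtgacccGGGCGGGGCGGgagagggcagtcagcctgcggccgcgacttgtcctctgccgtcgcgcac
Fzd7: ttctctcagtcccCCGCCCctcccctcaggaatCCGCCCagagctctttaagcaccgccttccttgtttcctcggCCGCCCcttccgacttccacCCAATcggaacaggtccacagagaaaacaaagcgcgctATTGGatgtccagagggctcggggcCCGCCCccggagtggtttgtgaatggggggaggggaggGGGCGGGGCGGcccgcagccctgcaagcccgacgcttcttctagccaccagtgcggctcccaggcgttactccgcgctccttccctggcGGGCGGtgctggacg
Fzd1: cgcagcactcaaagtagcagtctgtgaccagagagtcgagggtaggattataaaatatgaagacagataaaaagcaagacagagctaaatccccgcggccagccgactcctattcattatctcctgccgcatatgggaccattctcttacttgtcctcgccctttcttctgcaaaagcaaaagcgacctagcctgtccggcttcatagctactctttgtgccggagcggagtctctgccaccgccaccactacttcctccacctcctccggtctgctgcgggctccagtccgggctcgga
The Fzd5 window held 10 GC boxes and 1 CCAAT box at 75.7% GC. The Fzd7 window held 7 GC boxes and 2 CCAAT boxes at 66.7% GC. In contrast, the Fzd1 window held neither, at 54.0% GC, and carried the letters TATAAA 202 bases before the start site. Of all 32851 promoter windows of this length, 35.7% held a GC box, 37.4% a CCAAT box and 13.6% TATAAA or its reverse complement, and their median GC content was 52.7%. For the TCF motif only CTTTGAA and CTTTGAT were searched. Neither occurred on either strand of the 6 windows, and 8.7% of all windows held at least 1 of them. Other forms such as CTTTGTT were not searched, and its reverse complement, AACAAAG, stands in the Fzd7 window. These matches describe letters, not binding.

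The closely related genes Fzd1, Fzd2 and Fzd7 supplied most Frizzled transcripts of the fibroblasts. In the timecourse MEFs, Fzd2 stood at 67.8 and 65.5 TPM, Fzd7 at 53.7 and 56.3 TPM and Fzd1 at 29.1 and 31.8 TPM. Fzd2 made up 34.6% of the summed Frizzled TPM, Fzd7 28.6% and Fzd1 15.8%. Then followed Fzd6, Fzd8, Fzd4, Fzd5 and Fzd3, and Fzd9 and Fzd10 lay below 1 TPM. The ranges of Fzd4 and Fzd5, and of Fzd9 and Fzd10, overlapped in these MEFs. The sum over the family was 190 to 195 TPM in the MEFs, 127 to 129 TPM at day 2 and 161 to 162 TPM at day 4 with vehicle. Fzd5, a receptor of the Fzd5 and Fzd8 subgroup that acts in β-catenin signalling, went from 3.2% of the sum in MEFs to 10.3% at day 2 and 11.5% at day 4. In ESCs the family summed to 102 TPM, of which Fzd7 made up 46.7%, Fzd2 12.7%, Fzd5 12.2% and Fzd1 1.6%. TPM is compared within an experiment only, and ESCs belong with the lentivirus experiment, in whose MEFs with the empty virus Fzd1 made up 33.4%.

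**Figure D1:**
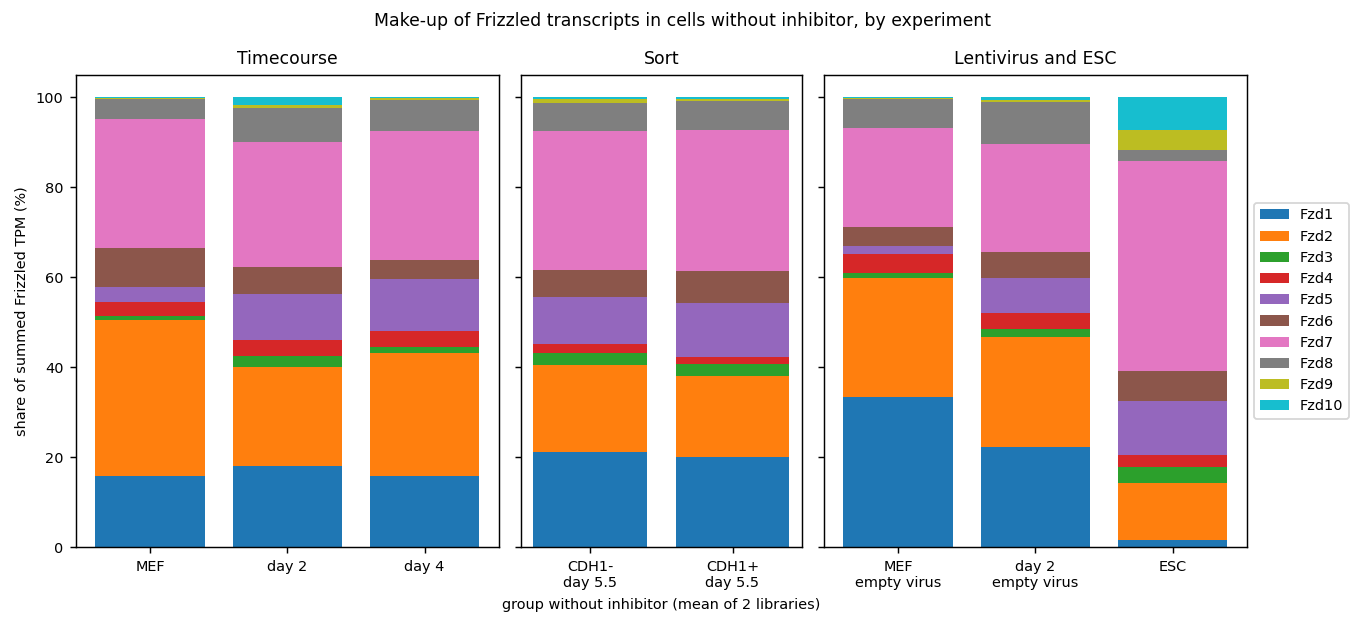
Share of the summed Frizzled TPM (vertical axis, percent) taken by each gene in 8 groups without inhibitor (horizontal axis), as the mean of 2 libraries, with 1 panel for each experiment. In the timecourse panel Fzd5 takes 3.2% in MEFs and 11.5% at day 4, and in the lentivirus panel Fzd1 takes 33.4% in MEFs and 1.6% in ESCs.

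Induction of the factors was accompanied by changes in most of the family. At day 2 with vehicle against MEFs, 8 of 10 members were called, 3 higher and 5 lower, against 74.4% of all genes tested. Their median change was -0.14, against 0.06 over all genes. At day 4 against MEFs, 8 members were called (3 higher, 5 lower), against 82.2% of all genes. Between day 2 and day 4, 9 were called (6 higher, 3 lower), against 77.8% of all genes. The share of members called was thus near that of all genes. The day-2 vehicle libraries also enter the difference by which the family was selected, so the day-2 values of Fzd5 are not independent of it. Fzd5 is nevertheless among the called members counted at day 2 against MEFs and between day 2 and day 4.

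Fzd5 was higher at day 4 than in MEFs, with day 2 between them. It was at 23.7 and 22.2 CPM in MEFs, 48.3 and 48.6 CPM at day 2, and 64.8 and 66.7 CPM at day 4, with no overlap between the 3 groups. The day-4 level was 2.86-fold that of MEFs (log2 1.52 ± 0.05, adjusted p = 5.4e-28). Day 4 lay above day 2 by 0.44 ± 0.04, which is a description, since the day-2 vehicle libraries entered the selection. Its relative Fzd8 had values of 16.2 and 14.7 CPM in MEFs and 20.2 and 18.8 CPM at day 4 (0.33 ± 0.08, adjusted p = 0.00021). The call of Fzd8 between day 2 and day 4 (0.18 ± 0.08, adjusted p = 0.032) was lost without replicate 1 or 2 of the day-2 vehicle cells (adjusted p = 0.10 and 0.057) or without replicate 1 of the day-4 vehicle cells (0.24).

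Fzd1, Fzd2 and Fzd7 fell from MEFs to day 2 and stood higher again at day 4. Fzd2 went from 136 and 127 CPM in MEFs to 53.7 and 54.0 CPM at day 2 and 80.6 and 82.4 CPM at day 4. Its fall by 1.29 on the log2 scale at day 2 (SE 0.05, adjusted p = 2.0e-20) was followed by a rise of 0.60 ± 0.05 (adjusted p = 5.7e-12). Fzd7 stood at 144 and 145 CPM in MEFs, 88.8 and 93.6 CPM at day 2, and 115 and 113 CPM at day 4. For both genes the 3 groups did not overlap, and day 4 lay between day 2 and MEFs. Fzd7 fell by 0.66 at day 2 (SE 0.04, adjusted p = 5.6e-19) and then rose by 0.32 ± 0.04 (adjusted p = 7.7e-10). Fzd1 fell by 0.42 at day 2 (SE 0.04, adjusted p = 7.6e-12), from 70.7 and 74.5 CPM to 55.6 and 52.7 CPM. Its small later rise to 58.5 and 56.9 CPM (0.09 ± 0.04, adjusted p = 0.047) was lost without replicate 2 of the day-2 vehicle cells (adjusted p = 0.29) or replicate 1 of the day-4 vehicle cells (0.23), and with a replicate block (0.052). Fzd4, a receptor that also binds Norrin and acts in retinal vessels, fell by 0.60 at day 2 (SE 0.09, adjusted p = 7.6e-08) and then rose by 0.38 ± 0.09 (adjusted p = 0.00015). Its difference at day 4 from MEFs (-0.22 ± 0.08, adjusted p = 0.016) was lost without MEF replicate 2 (adjusted p = 0.070) or day-4 vehicle replicate 1 (0.092) and on log2(TPM + 1) (0.14).

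Of the planar polarity receptors, Fzd3 rose and Fzd6 fell from MEFs to day 2, and both fell between day 2 and day 4. Fzd3, which guides axons, was at 10.7 and 12.0 CPM in MEFs, 22.3 and 22.7 CPM at day 2, and 15.6 and 15.9 CPM at day 4. The rise at day 2 was 0.99 ± 0.08 (adjusted p = 4.1e-15), and the later fall was by 0.51 (SE 0.07, adjusted p = 2.9e-08). Fzd6, which orients hair follicles, was at 36.4 and 39.1 CPM in MEFs, 15.9 and 17.1 CPM at day 2, and 14.4 and 13.6 CPM at day 4. For both genes the MEF libraries lay clear of the others. The fall of Fzd6 was by 1.19 at day 2 (SE 0.07, adjusted p = 5.5e-19) and by 1.43 at day 4 (SE 0.07, adjusted p = 1.0e-21). Its step from day 2 to day 4 (-0.24 ± 0.07, adjusted p = 0.0036) was lost without replicate 2 of the day-2 vehicle cells (0.082) or of the day-4 vehicle cells (0.060). Fzd10, of the same subgroup as Fzd4 and Fzd9, was highest at day 2. It was at 0.38 and 0.882 CPM in MEFs, 3.31 and 3.82 CPM at day 2, and 0.647 and 0.606 CPM at day 4, a rise of 2.51 ± 0.25 (adjusted p = 6.5e-12) and a fall by 2.50 (SE 0.24, adjusted p = 2.4e-12). Fzd9 was at 0.327 to 0.995 CPM in these 6 libraries, 14 to 40 expected counts each, and was not called between any of the 3 groups. Between day 2 and day 4 it was called without replicate 1 of the day-4 vehicle cells (-1.47, adjusted p = 0.0035), without the low-count filter (-0.69, adjusted p = 0.041) and with a replicate block (-0.72, adjusted p = 0.048). The summed level of the 6 fibroblast markers also differed between these groups. It lay at 6306 to 6533 CPM in day-2 vehicle cells and 7159 to 7188 CPM in day-4 vehicle cells, against 21910 to 22067 CPM for MEFs. Summed macrophage markers were lowest in day-2 vehicle cells (43.7 to 46.0 CPM). They stood at 157 to 160 CPM in day-4 vehicle cells, below the 221 CPM of MEFs. The part of either marker set in the Frizzled changes was not tested.

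**Figure D2:**
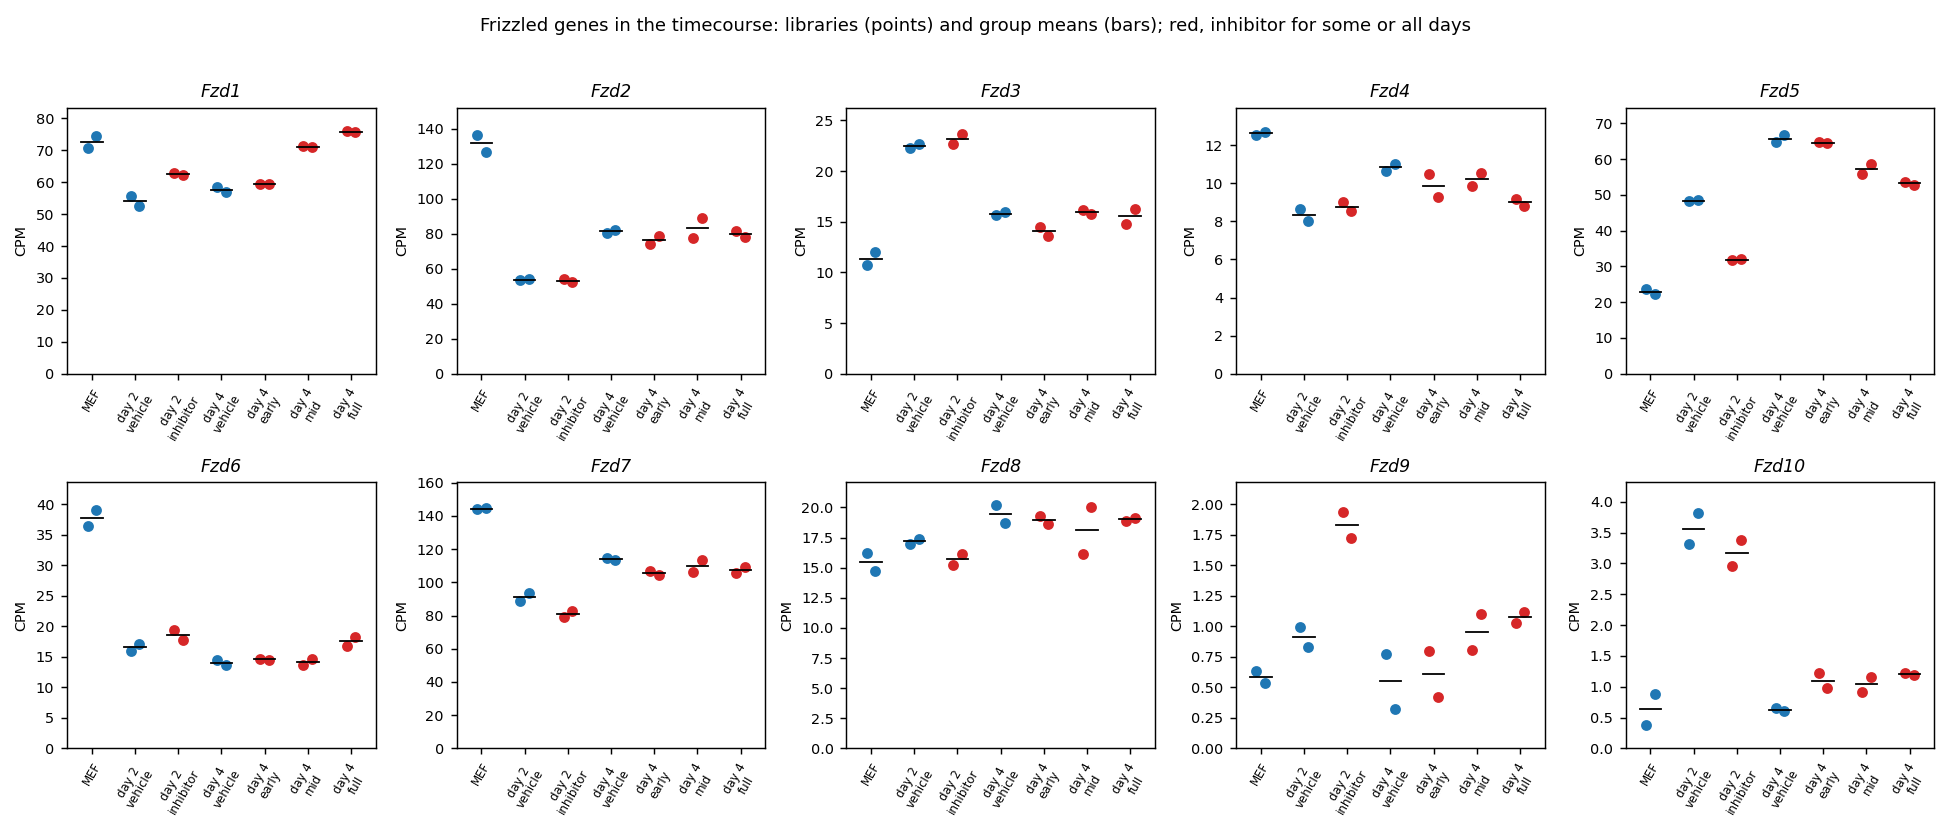
Level of each Frizzled gene (vertical axis, CPM, from 0, with its own scale per panel) in the 7 timecourse groups (horizontal axis). Points are the 2 libraries of a group, bars their mean, and red marks groups with inhibitor on some or all days. Fzd5 stands at 31.7 and 32.1 CPM with inhibitor at day 2, below both vehicle libraries at 48.3 and 48.6 CPM.

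The lentivirus experiment also compared day 2 with MEFs, on other libraries. With the empty virus, 8 members were called, Fzd5 and Fzd10 higher and Fzd1, Fzd2, Fzd4, Fzd6, Fzd7 and Fzd8 lower, against 66% of all genes. Fzd5 rose from 15.7 and 14.5 CPM to 41.4 and 39.8 CPM (1.42 ± 0.09, adjusted p = 4.1e-13). Fzd1 fell from 188 and 174 CPM to 74.7 and 75.4 CPM (-1.27 ± 0.07, adjusted p = 2.5e-14). Neither gene's groups overlapped. Fzd3 was at 16.1 and 17.2 CPM in these MEFs and 15.7 and 16.0 CPM at day 2 (-0.07 ± 0.10, adjusted p = 0.54), without the rise seen in the timecourse. Small calls in this comparison depended on single libraries. Fzd6 (-0.22 ± 0.08, adjusted p = 0.020) was lost without MEF replicate 1 (0.12) or day-2 replicate 2 (0.11). Fzd8 (-0.20 ± 0.08, adjusted p = 0.041) was lost without MEF replicate 1 (0.15) or 2 (0.089) or day-2 replicate 2 (0.53), and with DESeq2 (0.078). Fzd10 (0.81 ± 0.28, adjusted p = 0.012) was lost without MEF replicate 2 (0.27) or day-2 replicate 1 (0.063), and on log2(TPM + 1) (0.056).

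A fit over both experiments, added after the data had been seen, tested whether the change from MEFs to day 2 differed between them. It called 8 of 10 members, a count that includes Fzd5, against 57.6% of all genes. The change was higher in the timecourse by 1.06 ± 0.12 for Fzd3 (adjusted p = 9.6e-10), by 0.85 ± 0.07 for Fzd1 (adjusted p = 1.1e-12) and by 1.69 ± 0.42 for Fzd10 (adjusted p = 0.00077). It was lower there for Fzd6 (-0.96 ± 0.10, adjusted p = 8.8e-10) and Fzd2 (-0.48 ± 0.09, adjusted p = 2.0e-05). The value of Fzd5 was -0.35 ± 0.10, a description, since it rests on the day-2 vehicle libraries used in the selection. Virus, spike-in of human 293T RNA and paired-end reads differed between the experiments and cannot be told apart here. The summed macrophage markers were 221 CPM in the timecourse MEFs and 1249 to 1359 CPM in the MEFs with empty virus, and their part was not tested.

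In ESCs against MEFs with the empty virus, 9 members were called, 4 higher and 5 lower, a share near the 88.7% of all genes. Fzd1 was at 3.70 and 4.64 CPM in ESCs against 188 and 174 CPM in MEFs, a fall by 5.43 (SE 0.09, adjusted p = 5.3e-25). Fzd8 fell by 2.46 (SE 0.10, adjusted p = 2.1e-17), Fzd2 by 2.13 (SE 0.07, adjusted p = 5.7e-19), Fzd4 by 1.86 (SE 0.11, adjusted p = 9.5e-14) and Fzd6 by 0.42 (SE 0.08, adjusted p = 4.7e-05). Fzd5 was at 50.4 and 49.2 CPM in ESCs (1.72 ± 0.08, adjusted p = 1.2e-15). Fzd9 was at 5.95 and 4.95 CPM in ESCs, against 0.412 and 0.177 CPM in MEFs (4.19 ± 0.33, adjusted p = 1.2e-11). Fzd10 was at 13.3 and 12.2 CPM, against 1.33 and 0.662 CPM (3.68 ± 0.20, adjusted p = 1.4e-14). These 3 receptors were higher in both ESC libraries than in both MEF libraries, as was Fzd3 (0.74 ± 0.09, adjusted p = 7.6e-08). Fzd7 was at 131 and 136 CPM in ESCs and 131 and 130 CPM in MEFs (0.03 ± 0.06, adjusted p = 0.67). On the log2(TPM + 1) scale it was lower in ESCs (-0.39, adjusted p = 7.7e-06), a scale on which the median of all genes lay at -0.29, so its direction depended on the scaling.

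Selection of the family rested on the inhibitor at day 2, where Fzd5 stood at 31.7 and 32.1 CPM against 48.3 and 48.6 CPM with vehicle. The log2 difference was -0.60 ± 0.05, or 0.66-fold. In the same libraries Fzd1 differed by 0.21 ± 0.04, Fzd7 by -0.17 ± 0.04, Fzd6 by 0.16 ± 0.07 and Fzd9 by 1.00 ± 0.27, the last on 36 to 87 expected counts. Fzd2, Fzd3, Fzd4, Fzd8 and Fzd10 differed by -0.17 to 0.07. Among all genes 17.8% were called in this comparison, which is given for scale only. The libraries of day 4, the sort and the lentivirus experiment took no part in the selection. The day-4 tests share their estimate of spread with the day-2 libraries, so those of Fzd5 are not fully independent of it.

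At day 4 the inhibitor had been given in 3 windows, and their comparisons share the day-4 vehicle libraries. With inhibitor on all 4 days, 6 members were called, Fzd1, Fzd6, Fzd9 and Fzd10 higher and Fzd4 and Fzd5 lower, against 34.8% of all genes. With inhibitor on days 2 to 4, 2 members were called, Fzd1 higher and Fzd5 lower, against 27.4% of all genes. With inhibitor on days 0 to 2 only, edgeR, DESeq2 and limma on log2(TPM + 1) called 0 members, against 5.63% of all genes in edgeR. Fzd3, Fzd7 and Fzd10 then had an unadjusted p under 0.05.

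Fzd5 was at 64.8 and 66.7 CPM with vehicle at day 4, 64.7 and 64.5 CPM in the early window, 55.8 and 58.6 CPM in the mid window, and 53.6 and 52.8 CPM in the full window. The mid and full libraries lay below all vehicle and early libraries, and the early libraries lay just below the vehicle libraries. The differences from vehicle were -0.30 ± 0.04 in the full window (adjusted p = 2.6e-07), -0.20 ± 0.04 in the mid window (adjusted p = 0.00047) and -0.03 ± 0.04 in the early window (adjusted p = 0.83, 95% confidence interval -0.11 to 0.06). Full against early differed by -0.28 ± 0.04 (adjusted p = 2.1e-06), and full against mid by -0.10 ± 0.04, which was not called (adjusted p = 0.093). Fzd1 ran the other way. It stood at 58.5 and 56.9 CPM with vehicle, 59.4 and 59.3 CPM in the early window, 71.3 and 71.1 CPM in the mid window and 76.0 and 75.7 CPM in the full window. The mid and full libraries lay above all vehicle and early libraries. Fzd1 rose by 0.40 ± 0.04 in the full window (adjusted p = 2.0e-10) and by 0.30 ± 0.04 in the mid window (adjusted p = 3.1e-07), and its early difference was 0.04 ± 0.04 (adjusted p = 0.69).

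Fzd6 was called in the full window and not in the mid or early window. It was at 14.4 and 13.6 CPM with vehicle, 14.7 and 14.4 CPM in the early window, 13.7 and 14.7 CPM in the mid window and 16.9 and 18.3 CPM in the full window. Both full libraries lay above the other 6. The rise in the full window was 0.33 ± 0.07 (adjusted p = 0.00038). Full against mid called Fzd6 alone (0.31 ± 0.07, adjusted p = 0.0023), against 20.1% of all genes, and without mid replicate 1 Fzd2 as well (-0.16, adjusted p = 0.028). Full against early called 4 members, Fzd1, Fzd6 and Fzd9 higher and Fzd5 lower, against 31% of all genes. Without replicate 2 of the full window, Fzd6 was no longer called against mid (adjusted p = 0.068) or early (0.082). Fzd4 in the full window (-0.27 ± 0.09, adjusted p = 0.012) was lost without replicate 2 of the vehicle (0.072) or of the full window (0.099). Fzd9 and Fzd10 had few counts. Fzd9 was at 0.775 and 0.327 CPM with vehicle and 1.03 and 1.12 CPM in the full window (0.95 ± 0.32, adjusted p = 0.019), and its call was lost without replicate 2 of the vehicle (0.36) or of the full window (0.10), and with DESeq2 (0.055). Its call of full against early (0.84 ± 0.32, adjusted p = 0.039) was lost with DESeq2 (adjusted p = 0.10) and with limma on log2(TPM + 0.1) (adjusted p = 0.060). That call was also lost without early replicate 2 (log2 change 0.43) or full replicate 1 (log2 change 0.89) or 2 (log2 change 0.78). Fzd10 in the full window (0.93 ± 0.28, adjusted p = 0.0074) was lost without replicate 2 of the vehicle (0.055). Summed epithelial markers were 16.9 to 17.6 CPM with vehicle and 70.9 to 73.3 CPM in the full window, and their part in the Frizzled differences was not tested. Fzd2, Fzd3, Fzd7 and Fzd8 were called in none of the day-4 windows. Exceptions under other settings were Fzd7 without the low-count filter (-0.11, adjusted p = 0.015, in the full window and -0.12, adjusted p = 0.044, in the early window), Fzd7 in the early window with the 2 groups alone (-0.11, adjusted p = 0.0052) and Fzd8 without mid replicate 2 (-0.27, adjusted p = 0.030, in the mid window).

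**Figure D3:**
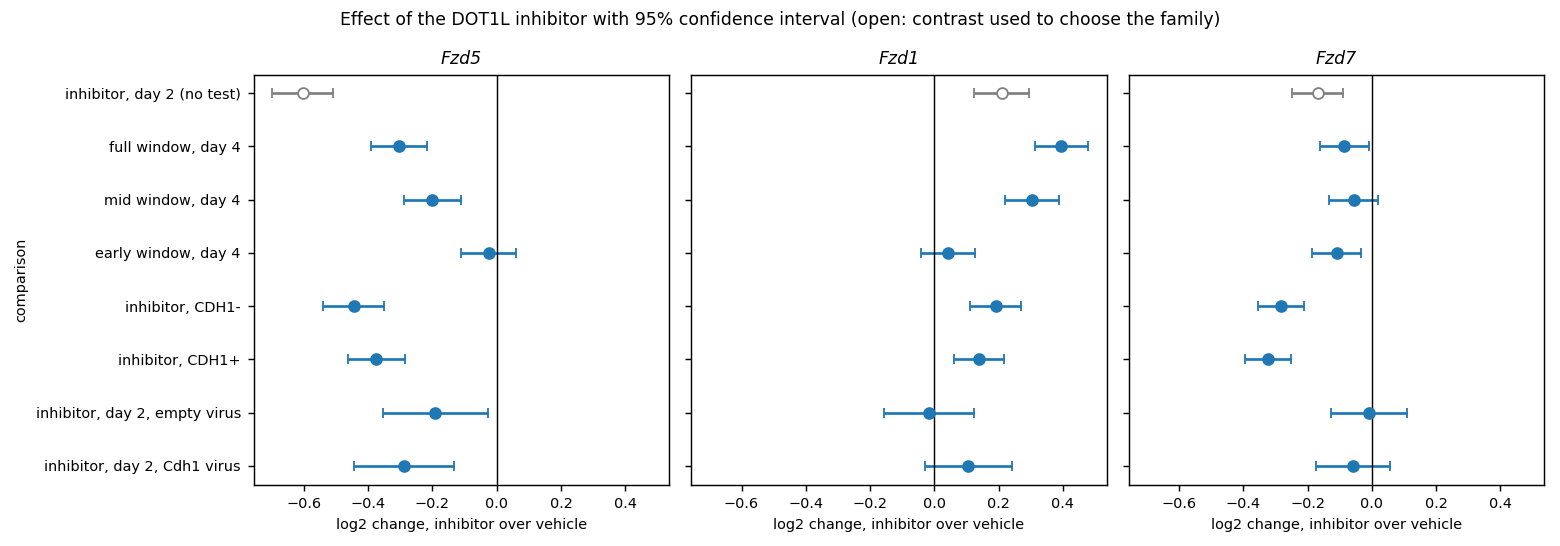
Effect of the DOT1L inhibitor on Fzd5, Fzd1 and Fzd7 (horizontal axis, log2 change over vehicle with its 95% confidence interval) in 8 comparisons (vertical axis). The open point is the difference used to choose the family; Fzd5 lies at -0.30 in the full window, -0.03 in the early window, -0.45 in CDH1- cells and -0.37 in CDH1+ cells.

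In the sort experiment the inhibitor was present from day 3.5 to day 5.5, and Fzd5 and Fzd7 fell in both fractions. In CDH1- cells 5 members were called, Fzd1 and Fzd6 higher and Fzd5, Fzd7 and Fzd8 lower, against 18.7% of all genes. In CDH1+ cells 4 were called, Fzd1 higher and Fzd5, Fzd7 and Fzd8 lower, against 18.8% of all genes. Fzd5 was at 48.7 and 45.8 CPM with vehicle and 34.5 and 34.9 CPM with inhibitor in CDH1- cells (-0.45 ± 0.05, adjusted p = 2.1e-13). In CDH1+ cells it was at 55.0 and 54.0 CPM against 43.1 and 41.1 CPM (-0.37 ± 0.04, adjusted p = 2.1e-11). The treated libraries lay below the vehicle libraries of their own fraction each time. Fzd7 was at 98.9 and 96.2 CPM against 78.8 and 81.7 CPM in CDH1- cells (-0.28 ± 0.04, adjusted p = 2.5e-10). In CDH1+ cells it was at 99.7 and 100 CPM against 81.0 and 78.6 CPM (-0.32 ± 0.04, adjusted p = 5.7e-13). Its groups did not overlap in either fraction. Summed epithelial markers went from 47.2 to 49.2 CPM with vehicle to 82.9 to 83.9 CPM with inhibitor in CDH1- cells, and from 141 to 143 CPM to 194 to 195 CPM in CDH1+ cells. The macrophage markers went from 10.2 to 10.4 CPM to 8.17 to 8.66 CPM in CDH1- cells, and from 72.6 to 72.9 CPM to 54.2 to 54.8 CPM in CDH1+ cells. Their part in the Frizzled differences was not tested.

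Fzd1 rose by 0.19 ± 0.04 in CDH1- cells (adjusted p = 9.5e-05) and by 0.14 ± 0.04 in CDH1+ cells (adjusted p = 0.0065). The latter call was lost without replicate 1 of the CDH1+ vehicle (0.17) or of the CDH1+ inhibitor cells (0.12) and with DESeq2 (0.053). Fzd6 was at 14.8 and 16.7 CPM with vehicle and 20.4 and 20.6 CPM with inhibitor in CDH1- cells (0.38 ± 0.07, adjusted p = 4.3e-06). In CDH1+ cells it was at 19.6 and 19.5 CPM against 22.2 and 21.7 CPM, a difference that was not called (0.17 ± 0.06, adjusted p = 0.051, and 0.038 with those 4 libraries alone). Fzd8 differed by -0.23 ± 0.08 (adjusted p = 0.038) and -0.22 ± 0.08 (adjusted p = 0.040). Its call was lost with DESeq2 in both fractions (0.20 in each). It was also lost in CDH1- cells without vehicle replicate 1 (0.13) or 2 (0.12) or inhibitor replicate 2 (0.40), and in CDH1+ cells without vehicle replicate 1 (0.15) or 2 (0.14) or inhibitor replicate 1 (0.32). The test of the difference between the fractions called 0 members with edgeR, DESeq2 and limma, against 0.186% of all genes with edgeR, and only Fzd6 had an unadjusted p under 0.05. For Fzd5 that difference was 0.07 ± 0.07 (95% confidence interval -0.06 to 0.20).

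Without inhibitor, CDH1+ and CDH1- cells differed in 4 members, Fzd5 and Fzd6 higher and Fzd4 and Fzd9 lower in CDH1+ cells, against 26.6% of all genes. Fzd6 differed by 0.31 ± 0.07 (adjusted p = 0.00018) and Fzd5 by 0.21 ± 0.05 (adjusted p = 0.00017), and for both genes the CDH1+ libraries lay above the CDH1- libraries. Fzd4 (-0.35 ± 0.14, adjusted p = 0.045) was lost without CDH1- replicate 1 (0.24) or 2 (0.063) or CDH1+ replicate 1 (0.60). Fzd9 (-0.92 ± 0.31, adjusted p = 0.018) was lost without CDH1- replicate 1 (0.087) or 2 (0.056) or CDH1+ replicate 2 (0.49). Both were also lost with DESeq2 (0.22 and 0.13). The fractions differed in other markers as well. The summed macrophage markers were 10.2 to 10.4 CPM in CDH1- and 72.6 to 72.9 CPM in CDH1+ cells, and the epithelial ones 47.2 to 49.2 CPM and 141 to 143 CPM. Their part was not tested.

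The lentivirus experiment repeated the day-2 inhibitor treatment on other libraries, whose depth and spread differed. They held 18534377 to 35852109 expected counts, against 32883668 to 50866706 in the timecourse. The edgeR coefficient of variation was 5.56%, against 2.95%. Summed epithelial markers with the empty virus were 12.8 to 12.9 CPM with vehicle and 12.5 to 16.3 CPM with inhibitor. In the timecourse at day 2 they were 6.90 to 7.19 CPM and 17.2 to 17.3 CPM. The part of these differences in the Fzd5 values was not tested. With the empty virus Fzd5 was at 41.4 and 39.8 CPM with vehicle and 34.7 and 36.3 CPM with inhibitor. The difference was not called (-0.19 ± 0.08, adjusted p = 0.15). edgeR, DESeq2 and limma called 0 members there, against 6.73% of all genes with edgeR, and Fzd5 and Fzd6 had an unadjusted p under 0.05. With the Cdh1 virus Fzd5 was at 41.8 and 45.6 CPM with vehicle and 34.0 and 37.6 CPM with inhibitor. It was the 1 member called (-0.29 ± 0.08, adjusted p = 0.027), against 5.05% of all genes. That call was lost without vehicle replicate 1 (adjusted p = 0.052) or 2 (0.32) or inhibitor replicate 1 (0.12), when the 4 libraries were fitted alone (0.095) and with limma on log2(TPM + 1) (0.089). Fzd1 and Fzd7 differed by -0.06 to 0.11 in these comparisons and were not called.

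The effect of the inhibitor did not differ detectably between the viruses. The interaction called 0 members, against 0% of all genes with edgeR. No member had an unadjusted p under 0.05, DESeq2 and limma called 0 members, and over all genes 1126 had an unadjusted p under 0.05 and DESeq2 called 24. For Fzd5 the interaction was -0.10 ± 0.11 (95% confidence interval -0.32 to 0.13). The Cdh1 virus itself called 0 members in MEFs, against 1.14% of all genes, and 0 members at day 2, against 0.897%, with edgeR, DESeq2 and limma alike. Unadjusted p-values under 0.05 were found for Fzd2 and Fzd7 in MEFs and for Fzd8 at day 2. The MEF library whose source field was at odds with its title was also left out, and again 0 members were called.

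**Figure D4:**
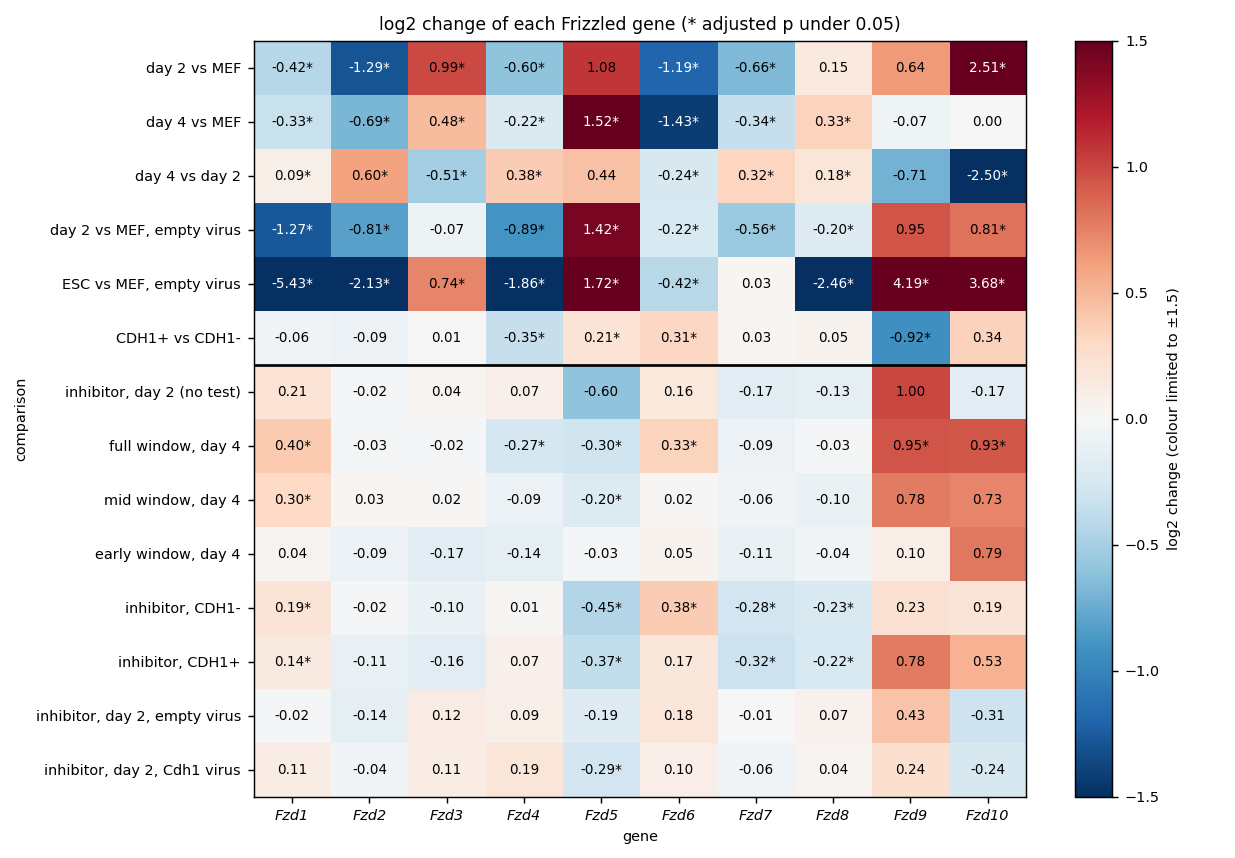
log2 change of the 10 Frizzled genes (horizontal axis) in 14 comparisons (vertical axis), with colour limited to 1.5 in either direction and an asterisk at an adjusted p under 0.05. No asterisk is drawn for the inhibitor at day 2 or for Fzd5 in the other 2 comparisons with the day-2 vehicle libraries of the timecourse. The line parts changes with cell state from those with inhibitor, and Fzd5 is marked at day 4 against MEFs (1.52) and in ESCs against MEFs (1.72).

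The other genes of the pathway were taken as 86 genes in 9 lists. These covered ligands, secretion factors, co-receptors, turnover factors, antagonists, intracellular components, TCF and LEF factors, targets and polarity partners. The lists were chosen with earlier results of these data known. The shares below are therefore a description, and no test of the lists as sets was run. Calls of single pathway genes rest on the main edgeR fit and were not checked with DESeq2, limma or a replicate left out. In the full window 74 were tested, of which 27 rose and 14 fell, 55.4% against the 34.8% of all genes, with a median change of 0.09. In the mid window 20 rose and 15 fell (47.3% against 27.4%), and in the early window 7 rose and 4 fell (14.9% against 5.63%). In CDH1- cells 16 of 69 rose and 10 fell (37.7% against 18.7%), and in CDH1+ cells 15 rose and 8 fell (33.3% against 18.8%). With the Cdh1 virus at day 2, 6 of 77 rose and 3 fell (11.7% against 5.05%), and with the empty virus 6 rose and 7 fell (16.9% against 6.73%).

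Co-receptors and partner receptors, which sit beside Frizzled at the membrane, were lower in the full window in 5 of 9 cases and higher in none. Of all 14473 genes tested there, 2752 rose and 2284 fell. Gpr124, a partner for Wnt7 signals in brain vessels, fell from a mean of 247 CPM to 162 CPM (-0.61 ± 0.03, adjusted p = 3.9e-18). Ptk7, a polarity receptor, fell by 0.42 (SE 0.03, adjusted p = 7.9e-14), and Lrp5 by 0.24 (SE 0.04, adjusted p = 4.8e-06). Gpr124 and Ptk7 also fell in CDH1- cells (-0.38 and -0.33) and in CDH1+ cells (-0.34 and -0.21). Of the list, 5 fell in the mid window, 1 in the early window, 3 in CDH1- and 2 in CDH1+ cells, with none higher. At day 2, 4 fell and none rose with the empty virus, while 2 rose and 2 fell with the Cdh1 virus. Among the ligands 4 of 14 rose in the full window and 1 fell, a share called near the 34.8% of all genes. The ligand that fell was Wnt5a, a polarity ligand (-0.36 ± 0.05, adjusted p = 3.8e-08). Of the 2 secretion genes, the enzyme Porcn rose by 0.72 ± 0.07 (adjusted p = 9.7e-12) and Wls was called lower. Of the R-spondin and turnover list 3 of 8 rose and 2 fell, among the latter Lgr4, an R-spondin receptor (-0.41 ± 0.04, adjusted p = 1.5e-10). Znrf3, a ligase that removes Frizzled from the membrane, was not called (-0.10 ± 0.08, adjusted p = 0.32). Its relative Rnf43 rose by 1.37 ± 0.35 (adjusted p = 0.0021).

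Antagonists rose in 8 of 13 cases in the full window and fell in 2. Dkk2, which binds the Lrp co-receptors, rose by 0.76 ± 0.07 (adjusted p = 3.1e-12), Sostdc1 by 0.80 ± 0.08 (adjusted p = 1.7e-11), and Sfrp1, which binds Wnts, by 0.32 ± 0.03 (adjusted p = 1.9e-11). Of the Wnt targets 7 of 11 rose in the full window and none fell, against 34.8% of all genes called in either direction. In the mid window 5 rose and 2 fell, and in the early window 1 rose and none fell. In each CDH1 fraction 3 of 10 rose and 1 fell. At day 2, 2 of 12 rose with the Cdh1 virus and 1 with the empty virus, and none fell. Of the targets, Notum and Apcdd1 also stand in the antagonist list, and Lgr5, Rnf43 and Znrf3 in the turnover list. Lef1 and Axin2 stand in other lists too, so the list counts overlap. In the full window Axin2, a target and a member of the destruction complex, rose from a mean of 3.68 CPM to 6.43 CPM (0.80 ± 0.12, adjusted p = 4.4e-07). It also rose in the mid window (0.66 ± 0.12, adjusted p = 4.8e-05), in CDH1- cells (1.19 ± 0.20, adjusted p = 1.8e-06), in CDH1+ cells (1.41 ± 0.20, adjusted p = 4.0e-09) and at day 2 with the Cdh1 virus (0.56 ± 0.14, adjusted p = 0.025). It was not called in the early window (0.33 ± 0.12, adjusted p = 0.12) or at day 2 with the empty virus (-0.09 ± 0.16, adjusted p = 0.80). Of the TCF and LEF factors, Tcf7 rose by 1.71 ± 0.14 (adjusted p = 4.0e-13) and Tcf7l1, mainly a repressor, fell by 0.43 (SE 0.04, adjusted p = 2.0e-10). Among polarity partners 4 of 9 rose, led by Celsr1 (1.02 ± 0.10, adjusted p = 4.0e-10).

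Over the 14 timecourse libraries, the genes whose log2(CPM + 0.5) was most like that of Fzd5 were Fam174b (Pearson r = 0.985), Gemin8 (0.983), Scp2 (0.983) and Ccdc18 (0.980), among 10765 genes with a mean of at least 5 CPM. Most like Fzd7, which had the highest mean TPM, were Gsn (0.981), Mpeg1 (0.980), Col4a1 (0.980) and Angpt2 (0.979). The 14 libraries came from 7 groups and are not independent points, so these values are a description.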

How the data were processed

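Trimmomatic, Bowtie and RSEM 1.2.4 are named in the submitters' processing notes, as are mm9 and hg18; their roles are not given in the sources used here. The deposited tables, 1 per library, held expected counts, in which RSEM divides reads that match several genes, as can occur within a gene family. The deposited TPM values were length-scaled by the authors and used for levels between genes and as an alternative. The deposited FPKM values were not used. No column of another series was present (0 columns). Expected counts were rounded and tested with edgeR 4.0.16 in R 4.3.3 (TMM, filterByExpr with a minimum count of 10 and total of 15, robust quasi-likelihood fit, Benjamini-Hochberg at 0.05), with 1 coefficient per group and 1 fit per experiment, so groups share an estimate of spread. The SE is the log2 change divided by the square root of F. The tests were tried on counts drawn from a model fitted to these data, which cannot show whether that model holds. The outcome is not used here. Alternatives were DESeq2 1.42.0, limma 3.58.1 on log2(TPM + 1) and log2(TPM + 0.1), RLE scaling, no filter, a replicate block, the groups of a contrast alone, and each replicate left out. The fit over 2 experiments was added after the data had been seen. The family and the pathway and marker lists were chosen with earlier results of these data known. Any of the 10 members may be named in a comparison, and of each pathway list at most the 2 called genes with the smallest p, besides Axin2, Lgr5, Lef1, Sfrp1, Lrp5, Lrp6, Znrf3 and Rnf43. Promoter windows came from RefSeq, GRCm38.p6.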

Additional observations from a re-analysis of the deposited data

Results flagged for a closer look

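In the fit across both experiments, the change from MEFs to day 2 was called as different for 8 members, by (timecourse minus lentivirus, log2) 0.85 for Fzd1, -0.48 for Fzd2, 1.06 for Fzd3, 0.29 for Fzd4, -0.35 for Fzd5, -0.96 for Fzd6, 0.35 for Fzd8 and 1.69 for Fzd10. Fzd4 was not called with DESeq2 (adjusted p = 0.081). The value of Fzd5 rests on the day-2 vehicle libraries by which the family was selected.

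Fzd3 rose from MEFs to day 2 in both timecourse libraries and was lower on average with the empty virus, and the separately fitted changes differed by 1.06. Those of Fzd8 differed by 0.35, with a higher timecourse day 2 and a lower one with the virus. For the inhibitor at day 2, Fzd8 was lower in both treated timecourse libraries and higher in both treated libraries with the Cdh1 virus, and the changes differed by -0.17. This last difference was not tested, and it includes the comparison by which the family was selected.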

How the results depend on the processing

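Of 2276 member values under an alternative, 2177 kept their direction where called and their side of the threshold, 72 lost a call, 20 gained one, 5 untested ones moved and 2 reversed. A further count of 97 values, called in neither fit, differed in sign. Both reversals were Fzd7 in ESCs against MEFs, at -0.39 on log2(TPM + 1) and log2(TPM + 0.1), where the median of all genes lay at -0.29 and -0.39. At day 2 against MEFs with the empty virus that median lay at -0.14 and -0.18. The median member difference under the inhibitor at day 2 was 0.0115, then 0.0386 and 0.0467 on the TPM scales, and -0.00479 to 0.00819 with a replicate left out. Counts of members called that moved by more than 1.5 times were early window 0 to 1 (Fzd7) without the filter or with the 2 groups alone, CDH1+ inhibitor 4 to 2 with DESeq2, CDH1+ against CDH1- 4 to 2 with DESeq2 and on both TPM scales, and inhibitor with the Cdh1 virus 1 to 0 on both TPM scales and with the 2 groups alone. With a replicate left out, such counts ran from lowest to highest as 3 and 6 (full window), 0 and 2 (full against mid), 2 and 4 (full against early), 2 and 3 (CDH1+ against CDH1-) and 0 and 1 (inhibitor, Cdh1 virus), and 6 to 8 of 9 were called between day 2 and day 4. Calls gained without 1 library, besides those named above, were Fzd8 at day 2 against MEFs (MEF replicate 1, 0.22), Fzd9 in the mid window (vehicle replicate 1, 1.54), Fzd9 (vehicle replicate 1, 1.69) and Fzd3 (vehicle replicate 2, -0.22, or inhibitor replicate 1, -0.23) for the inhibitor in CDH1+ cells, Fzd2 in CDH1+ against CDH1- cells (CDH1- replicate 1, -0.16) and Fzd9 at day 2 with the empty virus (MEF replicate 1, 1.66). The cause of these moves was not tested. Correlations of same-numbered deviations were -0.28 to 0.20 in the timecourse, -0.18 to 0.15 in the sort and -0.25 to 0.29 in the lentivirus experiment. In the sort the median was 0.11, with 4 of 6 group pairs above 0.1 and 1 below -0.1. These values do not settle whether replicate numbers pair the samples, and the main fits did not pair them. The replicate block changed no count of members; between day 2 and day 4 it lost Fzd1 (0.09, adjusted p = 0.052) and gained Fzd9 (-0.72, adjusted p = 0.048).

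Over all genes, DESeq2 called 1396 in place of 2607 (CDH1- inhibitor), 1460 for 2631 (CDH1+ inhibitor), 2243 for 3717 (CDH1+ against CDH1-), 10 for 26 (fraction interaction) and 24 for 0 (virus interaction, 5 without the filter). On TPM, 495 and 398 stood for 815 (early window), 8 and 9 for 26, 249 and 151 for 759 (inhibitor, Cdh1 virus), 79 and 78 for 135 (Cdh1 virus, day 2) and 205 and 81 for 171 (Cdh1 virus, MEFs). With the groups alone, 1543, 186, 227 and 287 were called in the early window, for the inhibitor with the Cdh1 virus, and for the Cdh1 virus at day 2 and in MEFs. With a replicate left out, the lowest counts were 1514 for 2583 (inhibitor, day 2), 382 for 815, 1760 for 2910 (full against mid), 1677 for 2631, 275 for 1013 (inhibitor, empty virus), 123 to 1259 for 759, 62 for 135 and 89 for 171. The share of calls that were higher moved on log2(TPM + 1) from 48.9% to 72.9% (inhibitor, day 2), 57.7% to 77.4% (full against mid), 53.7% to 71.5% (full against early), 41.9% to 60.1% and 44.2% to 57.2% (CDH1- and CDH1+ inhibitor), 48.2% to 70.1% (CDH1+ against CDH1-), 47.8% to 75.6% (inhibitor, empty virus) and 50.6% to 34.3% (day 2 against MEFs, empty virus). Depth limits Fzd9 and Fzd10, which held 2 to 87 and 15 to 170 expected counts per library outside ESCs.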
